A study of Rattus norvegicus with 6 samples.

Results

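Heat shock chaperones are the proteins that fold new polypeptides and refold or clear damaged ones. The genes described here are 10 members of this system, chosen by symbol from the 25399 genes listed in the files: Hspa1a, Hspa1b, Dnajb1, Hsph1, Hsp90aa1, Hspa8, Hspb1, Hspe1, Hspd1 and Bag3. They were followed in 6 droplet libraries of single cells from rat brain, in 3 libraries labelled pontine infarction and 3 labelled sham. All rats were Sprague Dawley and are labelled postnatal day 21, a label that leaves unclear which day of the experiment it counts. The series title places the tissue in the pons after stroke, and the labels mention 3 rats given the infarction. The labels used here state neither the time after infarction nor the method of occlusion nor the sham procedure. The present comparison asks which chaperone transcripts are higher or lower after the infarction, and in which cells.

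The heat shock system works in layers. HSP70 proteins bind exposed hydrophobic stretches of a client, J-domain proteins bring the client and stimulate the ATPase of HSP70, and HSP110 and BAG proteins release the nucleotide so that the client can leave. Hspa8 encodes the constitutive HSP70 of the cytosol, and Hspa1a and its near-identical neighbour Hspa1b encode the inducible form. Hsp90aa1 encodes the inducible cytosolic HSP90, which matures kinases and steroid receptors, and Hspb1 encodes a small heat shock protein that holds unfolded clients without ATP and is abundant in muscle and vessel walls. Hspd1 and Hspe1 encode the 2 parts of the mitochondrial chaperonin, the HSP60 barrel and its HSP10 lid. When damaged proteins take up the free chaperones, the heat shock factor HSF1 is released and binds repeats of the motif nGAAn upstream of the inducible genes.

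The element searched for was GAANNTTCNNGAA, in which N is any base, together with its reverse complement TTCNNGAANNTTC, and overlapping matches were counted. It was sought in promoter windows from RefSeq on build GRCr8, which run from 250 bases before to 50 bases after each gene's start. Of 33469 windows 267 held it, or 0.798%. A window was given for 8 of the 10 members, and 4 of these held the element, namely Hspa8, Hsph1, Hspd1 and Hspe1. Hspa8 holds 2 elements that lie apart, and Hspd1 and Hspe1 each hold 2 that overlap, of which 1 is shown. The windows of Hspa1a, Dnajb1, Hspb1 and Bag3 held no match to these letters, which says nothing about HSF1 at those genes. Hspd1 and Hspe1 lie head to head and share 1 region, so their elements are the same bases read from opposite strands. The 29 bases around each element are shown for the members whose windows hold it, so that the element can be read beside its gene. Each is written 5′ to 3′ on the gene's own strand, and the capitals mark the element.
Hspa8, chr8:50080293-50080321, plus strand, element 213 bases before the start: gcgagcgtGAAAGTTCCAGAAcgctgcgg
Hspa8, chr8:50080451-50080479, plus strand, element 55 bases before the start: cggaacccTTCTGGAAGGTTCtaagacag
Hsph1, chr12:10427324-10427352, plus strand, element 36 bases before the start: gccgcagaTTCTGGAAAGTTCtcctcagt
Hspd1, chr9:64084259-64084287, minus strand, element 242 bases before the start: gcggggccTTCCGGAAGGTTCtagaaccg
Hspe1, chr9:64084259-64084287, plus strand, element 60 bases before the start: cggttctaGAACCTTCCGGAAggccccgc

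The files hold 44011 cell barcodes with totals of 56416475 to 69924334 unique molecular identifiers (UMIs, one per captured transcript) per library, and 37853 cells were kept. Of the barcode sequences, 226 occur in more than 1 library. Cells were grouped into 29 clusters, of which 26 could be named from marker genes. The names rest on markers alone and mean microglia-like, endothelial-like and so on. The 2 groups held very different cells. The infarction libraries held 1 smooth muscle cell and 14 pericytes, against 8749 and 2676 in the sham libraries, and they held 4745 macrophages and 4430 neutrophils, against 1 and 69 in the sham libraries. The units that held at least 20 cells in every library, and could be tested, were 6: microglia, an unnamed cluster with Cxcl13, Lyve1 and Mrc1 among its leading genes (called the Lyve1 cluster), dendritic cells, T or NK cells, endothelial cells and oligodendrocyte precursors. Counts were summed per library within each unit, and a gene is called where the adjusted p of edgeR's quasi-likelihood test over all genes of that unit is under 0.05. Levels are CPM, the UMIs of a gene scaled to one fixed total per sum, adjusted by edgeR's TMM factors unless they are called plain CPM, and they measure the share of a class's captured RNA, not RNA per cell.

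Hspa1b was almost unread. It had 0 UMIs in the kept cells of the infarction libraries and 2 in those of the sham libraries, while Hspa1a had 21052 UMIs in infarction cells and 200684 in sham cells. The 2 genes code for nearly the same protein, and RefSeq lists Hspa1b as a synonym of Hspa1a, so the counts given as Hspa1a may include reads of both copies. The other members had between 5517 and 313307 UMIs in infarction cells and between 7023 and 417246 in sham cells. All members except Hspa1b passed the filter on low counts in every tested unit, apart from Bag3 in oligodendrocyte precursors.

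The chaperones did not move as 1 block. In microglia and the Lyve1 cluster the inducible genes Hspa1a and Dnajb1 and the small heat shock gene Hspb1 fell, while Hspa8, Hsp90aa1 and both parts of the mitochondrial chaperonin rose. Dendritic cells had the same 3 falls and rises of Hspa8, Hspd1 and Hspe1. Among members in T or NK cells 4 fell and none rose. In endothelial cells and oligodendrocyte precursors members rose and none fell.

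In microglia, the resident macrophages of the brain, 6 members were called higher and 3 lower out of 9 tested, where 64.0% of all 10449 genes tested were called in either direction, 32.3% higher and 31.6% lower. So many genes differed in these cells that a count of calls tells little about the chaperones, and the sizes carry the description. The Lyve1 cluster had 4 of 9 members called higher and 3 lower, beside 13.8% and 12.3% of all genes, or 26.0% in either direction. Dendritic cells had 3 of 9 higher and 3 lower, beside 7.19% and 5.47%, or 12.7%. T or NK cells had 0 of 9 higher and 4 lower, beside 4.83% and 2.69%, or 7.52%. Endothelial cells had 3 of 9 higher and 0 lower, beside 4.46% and 5.06%, or 9.52%. Oligodendrocyte precursors had 5 of 8 higher and 0 lower, beside 14.3% and 13.9%, or 28.2%. Members whose 3 infarction values did not overlap the 3 sham values numbered 9 of 9 in microglia, beside 69.8% of all genes, and 6 of 9 in the Lyve1 cluster, beside 40.7%. They numbered 7 of 9 in dendritic cells, beside 34.4%, 6 of 9 in T or NK cells, beside 26.0%, 5 of 9 in endothelial cells, beside 30.5%, and 6 of 8 in oligodendrocyte precursors, beside 45.2%. The median log2 fold change of the members tested ran from -0.69 in T or NK cells to 1.16 in oligodendrocyte precursors, while that of all genes tested lay between -0.12 and 0.03 in the 6 units.

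**Figure D1:**
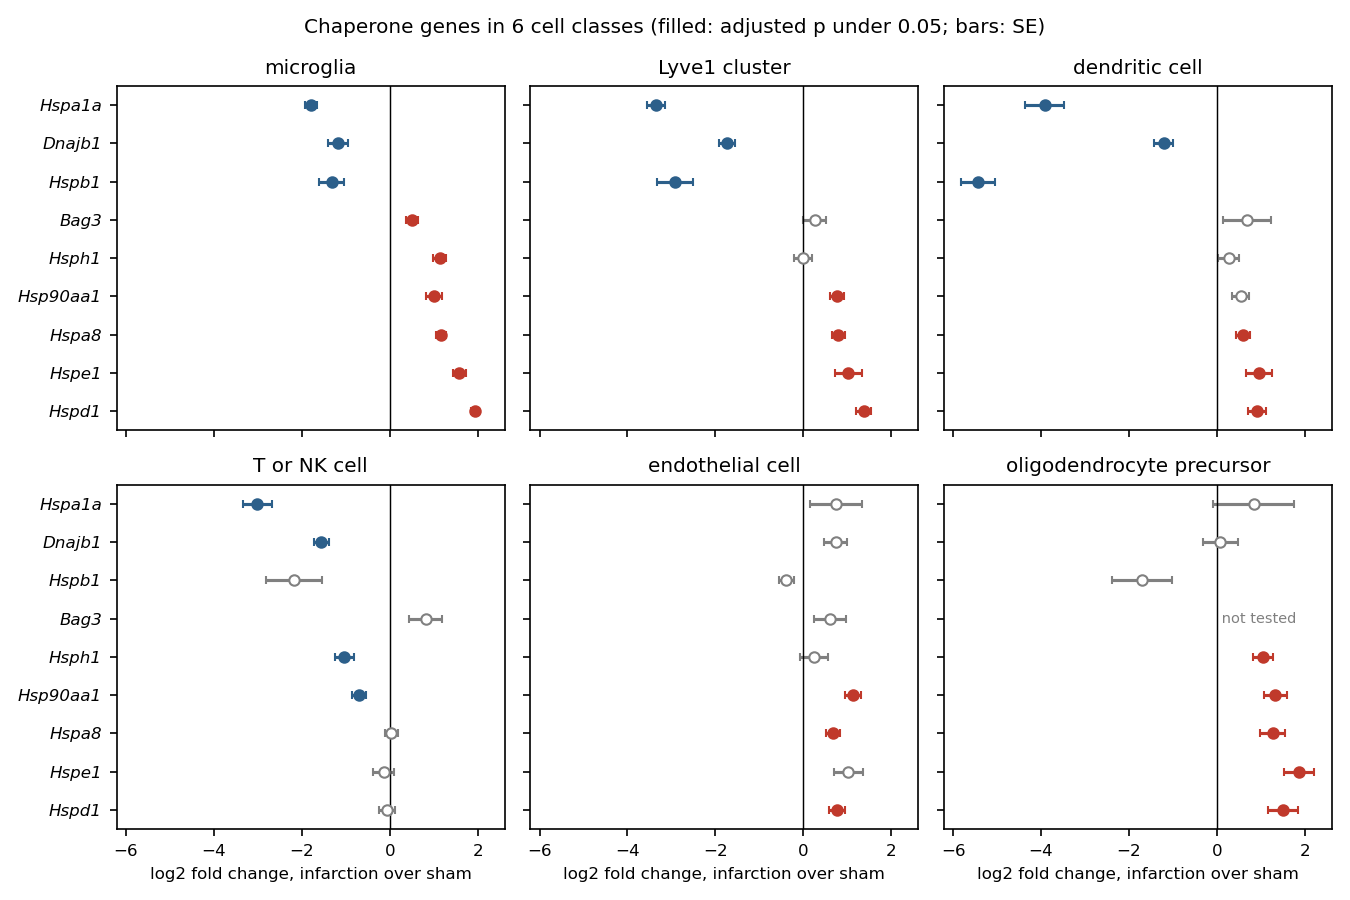
Log2 fold change of the summed counts, infarction over sham, with its standard error for 9 chaperone genes in each of 6 cell classes. Filled points passed an adjusted p of 0.05 and open points did not. Hspa1a lies left of 0 in microglia, the Lyve1 cluster, T or NK cells and dendritic cells, at -1.79 to -3.92, and Hspd1 lies right of 0 in every class but T or NK cells.

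Hspa1a, the inducible HSP70, fell in microglia, the Lyve1 cluster, T or NK cells and dendritic cells and was not called in endothelial cells or oligodendrocyte precursors. It also fell in fibroblasts, which held as few as 10 cells in a library, with a log2 fold change of -3.23 ± 0.67 (adjusted p = 0.0194 by edgeR). In microglia its level was 321, 397 and 400.1 CPM in the infarction libraries, against 1096, 1520 and 1246 CPM in the sham libraries. The groups did not overlap, and the log2 fold change was -1.79 ± 0.14 (SE, n = 3 each, adjusted p = 1.32e-05 by edgeR). Its level in the Lyve1 cluster was 125, 193 and 223 CPM in infarction cells, against 1678, 2207 and 1593 CPM in sham cells, a log2 fold change of -3.36 ± 0.21 (adjusted p = 9.63e-11 by edgeR). The gap here was far wider than the spread within either group. Raw counts behind it were 97, 116 and 96 UMIs in the infarction libraries and 1243, 1834 and 1295 UMIs in the sham libraries.

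T or NK cells and dendritic cells went the same way. Hspa1a in T or NK cells stood at 80.7, 71.2 and 129 CPM after infarction and at 709, 1050 and 519.5 CPM in sham, a log2 fold change of -3.01 ± 0.34 (adjusted p = 0.00196 by edgeR). In dendritic cells it was 24.2, 48.9 and 39.2 CPM after infarction and 364, 851 and 446 CPM in sham, a log2 fold change of -3.92 ± 0.44 (adjusted p = 0.00368 by edgeR). All 3 infarction libraries were below all 3 sham libraries in both classes. The sham dendritic sums rest on 27, 61 and 21 cells.

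Endothelial cells, which line the vessels, did not share the fall of Hspa1a. Its level was 1506, 382 and 615 CPM after infarction and 465, 662 and 360.2 CPM in sham, a log2 fold change of 0.75 ± 0.60 (adjusted p = 0.545 by edgeR). The groups overlapped, and the first infarction library stood far above the other 5. In oligodendrocyte precursors, the dividing glia that renew myelin-forming cells, Hspa1a was 399, 311 and 161 CPM after infarction and 67.9, 387 and 37.8 CPM in sham, a log2 fold change of 0.84 ± 0.92 (adjusted p = 0.547 by edgeR). The second sham library was as high as the infarction libraries. That library's precursors also held 5308 plain CPM of 4 smooth muscle genes, against 1229 and 1173 in the other sham libraries and 1.33 to 11.5 in the infarction libraries. Without it the value for Hspa1a in oligodendrocyte precursors was called higher, with a log2 fold change of 2.47 (adjusted p = 0.00825 by edgeR). The part of smooth muscle RNA in this value was not tested.

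Genes that respond to tissue dissociation were counted beside the inducible chaperones, as a list of 15 early genes such as Fos, Jun and Atf3. In microglia 6 rose and 6 fell, and their summed level was 5439, 5002 and 6238 plain CPM after infarction, against 10471, 6486 and 8523 in sham. All infarction sums were below all sham sums in these cells. Jun, a subunit of the AP-1 factor, fell by 1.57 on the log2 scale, and Atf3, a stress-induced factor, rose with a log2 fold change of 1.93. The Lyve1 cluster had 7 of 14 tested that rose and 2 that fell, and the summed level of 6798, 6647 and 8111 plain CPM after infarction overlapped the sham values of 7573, 7529 and 6236. Of 13 tested in T or NK cells 1 rose and 2 fell, and the summed level was 4590, 4191 and 3643 plain CPM after infarction and 4766, 4780 and 4708 in sham. The summed level in T or NK cells was thus lower after infarction too, with no overlap. In dendritic cells 1 of 14 rose and 3 fell, and the summed level of 4375, 4174 and 3997 plain CPM after infarction lay within the sham range of 3003 to 6013. Jun itself fell in the Lyve1 cluster, T or NK cells and dendritic cells too, with log2 fold changes of -1.77, -1.81 and -2.27 (adjusted p = 3.96e-09, 0.0334 and 0.0158 by edgeR). The part of dissociation in the fall of Hspa1a was not tested.

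Dnajb1, the J-domain partner that hands clients to HSP70, fell with Hspa1a in the same 4 of the 6 classes at a smaller size. Its level in T or NK cells was 133, 152 and 103 CPM after infarction and 359.8, 415 and 367 CPM in sham, a log2 fold change of -1.56 ± 0.17 (adjusted p = 1.03e-05 by edgeR). The Lyve1 cluster had 80.9, 66.5 and 123 CPM after infarction and 289, 309 and 279 CPM in sham, a log2 fold change of -1.73 ± 0.19 (adjusted p = 7.39e-08 by edgeR). The groups did not overlap in these 2 classes or in the next 2. The log2 fold change was -1.18 ± 0.22 in microglia and -1.20 ± 0.22 in dendritic cells (adjusted p = 0.00434 and 0.00162 by edgeR). In endothelial cells Dnajb1 stood at 217, 108 and 97.4 CPM after infarction and at 86.7, 89.3 and 73.2 CPM in sham, with an adjusted p of 0.0994 by edgeR. In oligodendrocyte precursors it was 69.4, 102 and 86.0 CPM after infarction and 48.5, 141 and 56.7 CPM in sham, and the groups overlapped.

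**Figure D2:**
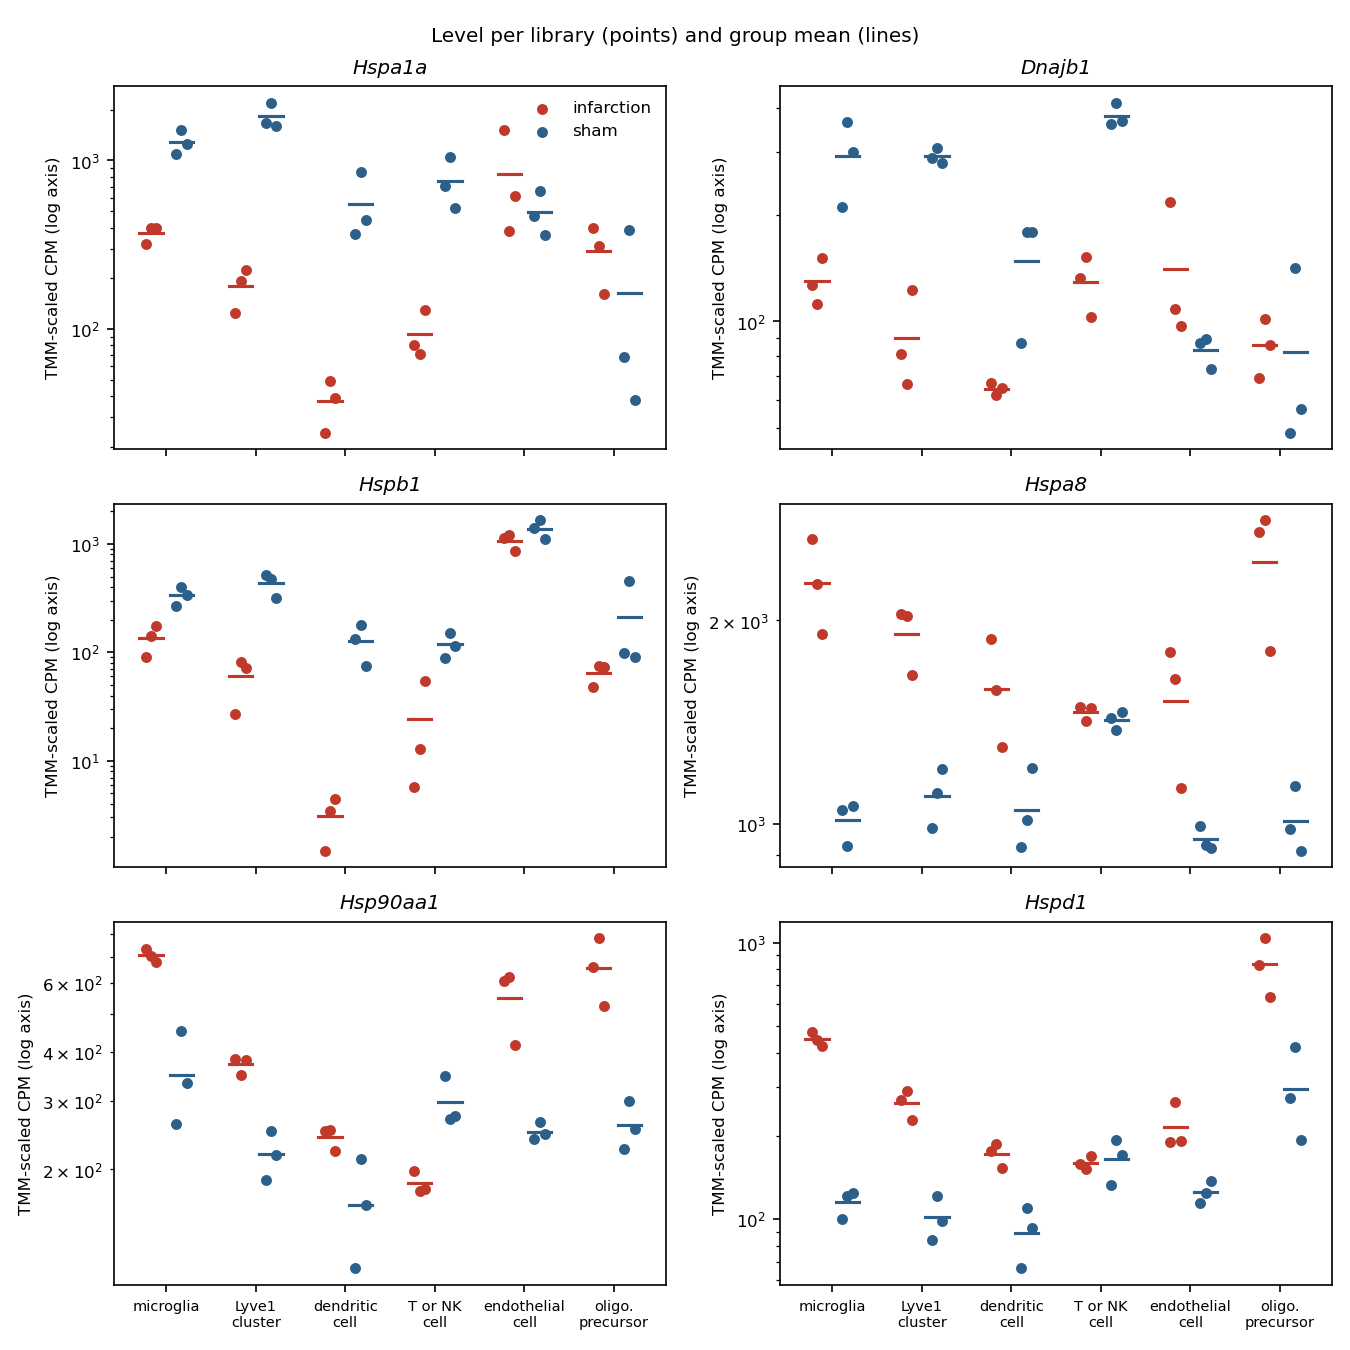
Level of 6 chaperone genes in each library (points) with the group mean (lines), in TMM-scaled CPM on a log axis, for 6 cell classes, infarction left and sham right. Hspa1a in T or NK cells lies between 71.2 and 129 after infarction and between 519.5 and 1050 in sham, while Hspa8 in the same cells lies between 1378 and 1492 in all 6 libraries.

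Hspb1 had its highest sham levels in the vessel wall, and it fell after infarction in dendritic cells, the Lyve1 cluster and microglia. In dendritic cells it was 1.48, 3.42 and 4.40 CPM after infarction, from 9, 23 and 27 UMIs, and 132, 178 and 75.2 CPM in sham, from 32, 67 and 13 UMIs. The log2 fold change was -5.43 ± 0.38 (adjusted p = 3.55e-06 by edgeR). The Lyve1 cluster had 27.0, 81.5 and 71.9 CPM after infarction and 513, 475 and 319 CPM in sham, a log2 fold change of -2.91 ± 0.41 (adjusted p = 0.00354 by edgeR). Microglia had 91.1, 141 and 175 CPM after infarction and 268, 403 and 341 CPM in sham, a log2 fold change of -1.32 ± 0.29 (adjusted p = 0.0107 by edgeR). In none of these 3 classes did the groups overlap.

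Free RNA from other cells can add UMIs to any class, and smooth muscle cells, with the highest Hspb1, were the most numerous vessel cells of the sham libraries. Estimated from genes of smooth muscle or choroid plexus, free RNA made up 1.67% to 5.43% of the sham sums of microglia, the Lyve1 cluster, T or NK cells and dendritic cells. In infarction microglia, where neutrophil genes gave the estimate, it was 22.4%, 9.97% and 3.34%. It would give 54.8, 81.0 and 67.2 plain CPM of Hspb1 in the sham microglia, where 266 to 396 were measured. The same step would give, in sham T or NK cells, 62.6, 58.1 and 60.6 plain CPM, where 89.1 to 138 were measured. With these amounts taken off, the log2 fold change was -0.96 for Hspb1 in microglia, -2.53 for Hspb1 in Lyve1 cluster cells and -5.62 for Hspb1 in dendritic cells (adjusted p = 0.0192, 0.0154 and 0.00869 by edgeR). Hspb1 in T or NK cells did not pass the test before this step, at a log2 fold change of -2.17 ± 0.64 (adjusted p = 0.119 by edgeR), and stood at -1.23 after it (adjusted p = 0.523). For Hspa1a the same estimate gave 27.3 to 38.9 plain CPM in sham microglia, against a measured 1087 to 1495. In dendritic cells of the first sham library the lowest estimate came from choroid plexus, at 88.1 plain CPM of Hspb1. Sham dendritic cells had a measured 76.1 to 169. That library's dendritic cells also held 2397 plain CPM of the smooth muscle genes, against 573 and 580 in the other sham libraries. The part of smooth muscle RNA in the dendritic fall of Hspb1 was not tested. After infarction free RNA came to 25.1%, 0.463% and 6.03% of the oligodendrocyte precursor sums and 0.576%, 20.8% and 6.57% of the endothelial sums. It would give 488 plain CPM of Hspa8 in precursors of the first library, where 2335 were measured. In endothelial cells of the second it would give 357, where 1448 were measured. With these amounts taken off, the rises of Hspa8, Hsp90aa1 and Hspd1 in both classes kept their calls.

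A smaller share of endothelial cells held a UMI of Hspb1 after infarction, as given below for cells thinned to 1000 UMIs. Its summed level in these cells was high in both groups. It was 1132, 1203 and 864 CPM after infarction and 1391, 1653 and 1114 CPM in sham, a log2 fold change of -0.38 ± 0.17 (adjusted p = 0.18 by edgeR), and the groups overlapped. In oligodendrocyte precursors Hspb1 was 47.8, 74.4 and 73.0 CPM after infarction and 98.6, 451 and 89.8 CPM in sham, with an adjusted p of 0.118 by edgeR. The high value is again the second sham library, the one with the most smooth muscle RNA.

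Bag3, which links HSP70 to small heat shock proteins and to autophagy, had at most 98.6 CPM in any library of the 5 tested classes where it passed the filter, and 138 ± 8.34 plain CPM in sham smooth muscle cells (SD, n = 3). Microglia had 49.6, 44.9 and 36.8 CPM after infarction and 26.2, 35.2 and 29.3 CPM in sham, a log2 fold change of 0.52 ± 0.14 (adjusted p = 0.00787 by edgeR). This call depends on which cells are named microglia, since the value for Bag3 in microglia at a clustering resolution of 0.5 was -0.54 (adjusted p = 0.0138). Bag3 was not called in the Lyve1 cluster, dendritic cells, T or NK cells or endothelial cells, with adjusted p-values of 0.491, 0.471, 0.21 and 0.342 by edgeR.

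Hspa8, the constitutive HSP70 that carries housekeeping folding and uncoats clathrin, rose in 5 of the 6 classes. Its level in microglia was 2634, 2264 and 1909 CPM after infarction and 1048, 928 and 1066 CPM in sham, a log2 fold change of 1.16 ± 0.12 (adjusted p = 3.15e-05 by edgeR). In oligodendrocyte precursors it was 2704, 2812 and 1802 CPM after infarction and 984, 1137 and 914 CPM in sham, a log2 fold change of 1.27 ± 0.28 (adjusted p = 0.00918 by edgeR). Every infarction library was above every sham library in both. The log2 fold change was 0.79 ± 0.15 in the Lyve1 cluster, 0.68 ± 0.16 in endothelial cells and 0.60 ± 0.16 in dendritic cells (adjusted p = 0.00027, 0.0164 and 0.018 by edgeR). The dendritic call was lost without the first or second library of either group (adjusted p up to 0.194). The endothelial one was lost without sham library 3 or infarction library 1 or 2 (adjusted p up to 0.111). T or NK cells held their 6 values within a narrow band, at 1492, 1420 and 1484 CPM after infarction and 1437, 1378 and 1464 CPM in sham, a log2 fold change of 0.04 ± 0.14.

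Hsph1, the HSP110 that recharges HSP70, was called in 3 classes and not in 1 direction. In microglia it was 181, 154 and 145 CPM after infarction and 54.3, 78.9 and 81.3 CPM in sham, a log2 fold change of 1.14 ± 0.15 (adjusted p = 0.000267 by edgeR). In oligodendrocyte precursors it was 163, 163 and 131 CPM after infarction and 69.5, 70.5 and 78.8 CPM in sham, a log2 fold change of 1.06 ± 0.23 (adjusted p = 0.00798 by edgeR). Hsph1 in T or NK cells fell to 92.2, 63.1 and 65.5 CPM after infarction, against 179.9, 131 and 134 CPM in sham, a log2 fold change of -1.03 ± 0.22 (adjusted p = 0.0054 by edgeR). The groups did not overlap in any of these 3 classes. In the Lyve1 cluster the means were 86.7 ± 23.4 CPM after infarction and 87.1 ± 15.4 CPM in sham (SD, n = 3 each).

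Hsp90aa1 rose in microglia, the Lyve1 cluster, endothelial cells and oligodendrocyte precursors and fell in T or NK cells. In endothelial cells it was 607, 623 and 417 CPM after infarction and 239, 264 and 246 CPM in sham, a log2 fold change of 1.13 ± 0.19 (adjusted p = 0.00117 by edgeR). In microglia it was 732, 705 and 679 CPM after infarction and 261, 451 and 333 CPM in sham, a log2 fold change of 1.01 ± 0.19 (adjusted p = 0.00359 by edgeR). The infarction libraries were the higher ones in both classes, with no overlap. The endothelial cells also differed in quality measures, with median mitochondrial shares of 11.8% to 14.4% after infarction and 6.75% to 8.37% in sham, and median UMIs per cell of 3383 to 4416 after infarction and 6579 to 7140 in sham. Their part in the endothelial rises of Hsp90aa1, Hspa8 and Hspd1 was not tested. The log2 fold change was 1.33 ± 0.26 in oligodendrocyte precursors and 0.76 ± 0.16 in the Lyve1 cluster (adjusted p = 0.00498 and 0.000693 by edgeR). Hsp90aa1 in T or NK cells stood at 199, 176 and 179 CPM after infarction and at 348, 268 and 275 CPM in sham, a log2 fold change of -0.69 ± 0.16 (adjusted p = 0.0105 by edgeR). Without the first sham library or without the second infarction library this fall was not called (adjusted p up to 0.0819).

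Hspd1, the HSP60 of the mitochondrial matrix, rose in every tested class except T or NK cells. In microglia it was 473, 443 and 423 CPM after infarction and 99.8, 121 and 124 CPM in sham, a log2 fold change of 1.95 ± 0.09 (adjusted p = 1.02e-07 by edgeR). The spread within each group was small beside this gap. Its level in the Lyve1 cluster was 269.7, 289 and 227 CPM after infarction and 83.7, 122 and 98.4 CPM in sham, a log2 fold change of 1.37 ± 0.17 (adjusted p = 8.77e-07 by edgeR). Oligodendrocyte precursors had the highest level of Hspd1 among the tested classes in both groups, at 832, 1038 and 635 CPM after infarction and 275, 419 and 192 CPM in sham, a log2 fold change of 1.501 ± 0.34 (adjusted p = 0.00983 by edgeR). The 2 groups were apart there too, although each was spread more widely than in microglia. Endothelial cells had 189, 264 and 192 CPM after infarction and 114, 124 and 138 CPM in sham (adjusted p = 0.0166 by edgeR), a call lost without sham library 1 or infarction library 2 (adjusted p up to 0.083). Without the first sham library Hspd1, Hspa8 and Hsph1 were no longer called in oligodendrocyte precursors (adjusted p = 0.0613, 0.0592 and 0.0504 by edgeR). T or NK cells had 158, 152 and 169 CPM after infarction and 133, 192 and 171 CPM in sham, and the groups overlapped.

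Hspe1, the HSP10 lid that shares its promoter region with Hspd1, rose in microglia and oligodendrocyte precursors. Microglia had 145, 111 and 99.6 CPM after infarction and 34.2, 40.3 and 42.7 CPM in sham, a log2 fold change of 1.58 ± 0.15 (adjusted p = 3.09e-05 by edgeR). In oligodendrocyte precursors it was 276, 282 and 127 CPM after infarction and 69.5, 70.5 and 47.3 CPM in sham, a log2 fold change of 1.87 ± 0.35 (adjusted p = 0.00428 by edgeR). In both classes all infarction libraries were higher. It was also called higher in the Lyve1 cluster and in dendritic cells (adjusted p = 0.0188 and 0.0486 by edgeR). The Lyve1 call was lost without either of 2 infarction libraries, the first or the second, or without either of 2 sham libraries, the first or the second (adjusted p up to 0.234). It was also lost at no more than 10% mitochondrial UMIs. The dendritic call was lost in 9 of 14 alternatives, among them leaving out each sham library or the first or second infarction library (adjusted p up to 0.283). Over the 36 sums of 6 classes and 6 libraries, Hspd1 and Hspe1 had a Pearson r of 0.83 on log2(CPM + 1), a description of points that share libraries and classes. The median share of mitochondrially encoded UMIs per cell moved with these 2 genes in microglia, at 7.08% to 7.68% after infarction and 4.77% to 5.11% in sham. It was also higher without overlap in endothelial cells, as given above, in T or NK cells, at 6.90% to 9.28% after infarction and 4.75% to 5.76% in sham, and in fibroblasts, at 8.98% to 12.95% after infarction and 5.82% to 7.36% in sham. It overlapped between the groups in the Lyve1 cluster, in dendritic cells and in oligodendrocyte precursors, in the last at 6.83% to 8.41% after infarction and 7.90% to 11.8% in sham. Its part in the rise of Hspd1 and Hspe1 was not tested.

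Whether the classes differed from each other was tested in 1 joint fit of all class and library sums. The fold of 8 of the 9 members differed between the 6 classes, Bag3 being the exception (adjusted p = 0.555 by edgeR), where 36.2% of the 9477 genes in that fit were called. Each class was then set against microglia. T or NK cells differed in 5 members, Hsph1, Hspd1, Hsp90aa1, Hspe1 and Hspa8, by -2.09 ± 0.27, -1.90 ± 0.23, -1.66 ± 0.22, -1.62 ± 0.33 and -1.02 ± 0.18 on the log2 scale, beside 13.7% of all genes. Endothelial cells differed in 4 members, beside 17.3% of all genes. Hspa1a and Dnajb1 had higher folds there, by 2.63 ± 0.66 and 1.96 ± 0.36, and Hspd1 and Hsph1 had lower ones, by -1.12 ± 0.23 and -0.87 ± 0.29. The difference of Hspa1a was 1.82 and not called without the first infarction library (adjusted p = 0.0854). Oligodendrocyte precursors differed in Hspa1a and Dnajb1, by 3.03 ± 0.69 and 1.36 ± 0.36, beside 15.1% of all genes, and the second was lost without sham library 3 or infarction library 2 (adjusted p up to 0.0967). The endothelial difference of Hsph1 held in 3 of 8 alternatives. Dendritic cells differed in Hspb1 and Hspd1, by -3.88 ± 0.64 and -0.87 ± 0.25, beside 13.6%, the second in 4 of 8 alternatives. The Lyve1 cluster differed in Hsph1 alone, by -1.04 ± 0.27, beside 5.04%, and not without sham library 2 or infarction library 1 or 2 (adjusted p up to 0.143).

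Over all kept cells the 2 groups also differ in which cells they hold. Hspb1 was 40.0, 49.6 and 47.7 CPM after infarction and 2256, 2158 and 2016 CPM in sham, a log2 fold change of -5.55 ± 0.13 (adjusted p = 6.97e-06 by edgeR). Of the Hspb1 UMIs, 0.193% of those in infarction cells and 87.0% of those in sham cells came from smooth muscle. A sum over all cells does not by itself tell fewer cells of a type from less RNA per cell. Kept smooth muscle cells numbered 1 after infarction and 8749 in sham. In all, 4 of 9 members were called higher and 4 lower over all cells, where 71.3% of 14613 genes were called, 33.2% higher and 38.1% lower. The groups did not overlap for 8 of 9 members, beside 77.8% of all genes. Bag3 fell here, by 1.05 on the log2 scale, although it rose in microglia, and 85.5% of its sham UMIs came from smooth muscle, against 0.0725% of its infarction UMIs. Hsph1 was the member not called, at 126, 111 and 80.2 CPM after infarction and 75.1, 103 and 76.0 CPM in sham.

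Several classes reached 20 cells per library in 1 group only, and their levels are given as plain CPM with no test, beside those of tested classes. In the infarction libraries macrophages had 27.1 ± 9.18 CPM of Hspa1a, 4.81 ± 1.37 of Hspb1 and 321 ± 40.0 of Hspd1 (SD, n = 3). Microglia of the same libraries had 375 ± 47.3 CPM of Hspa1a, 137 ± 43.9 of Hspb1 and 449 ± 21.2 of Hspd1. The unnamed cluster led by Fcnb and Vcan lay close to macrophages for the first 2 genes, with 42.0 ± 17.2 and 3.12 ± 1.13 CPM. Neutrophils had 136, 44.3 and 171 CPM of Hspa1a, where free RNA estimated from macrophage genes would give 136, 106 and 59.1. These estimates rest on shares of 111%, 91.0% and 58.3%, of which the first cannot be an amount of free RNA. The part of free RNA in the measured values was not tested. In the sham libraries smooth muscle cells had 1528 ± 183 CPM of Hspa1a, 4162 ± 398 of Hspb1 and 138 ± 8.34 of Bag3. The Hspb1 level of smooth muscle was above that of every other class with 20 cells per library in each sham library. Pericytes followed with 1952 ± 857 CPM and endothelial cells with 1395 ± 270 CPM, and these 2 overlapped.

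For Hspa1a the order of the sham classes with at least 20 cells in every sham library was less sharp. Fibroblasts had 1963 ± 596 CPM, the Lyve1 cluster 1802 ± 294, smooth muscle 1528 ± 183, pericytes 1471 ± 816 and microglia 1275 ± 206, and each of these overlapped the next in its range over libraries. T or NK cells with 732 ± 212 CPM, dendritic cells with 545 ± 231 and endothelial cells with 499 ± 152 came after them and overlapped each other. Neurons, oligodendrocyte precursors and astrocytes were lowest, at 203 ± 219, 172 ± 200 and 122 ± 55.4 CPM. Choroid plexus epithelial cells, with 17 cells in 1 sham library, had 83.0 ± 18.8 CPM (SD, n = 3). After infarction the order changed, with endothelial cells highest at 763 ± 540 CPM, then microglia at 375 ± 47.3 and oligodendrocyte precursors at 252 ± 98.4, and the ranges of these 3 overlapped in that order.

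**Figure D3:**
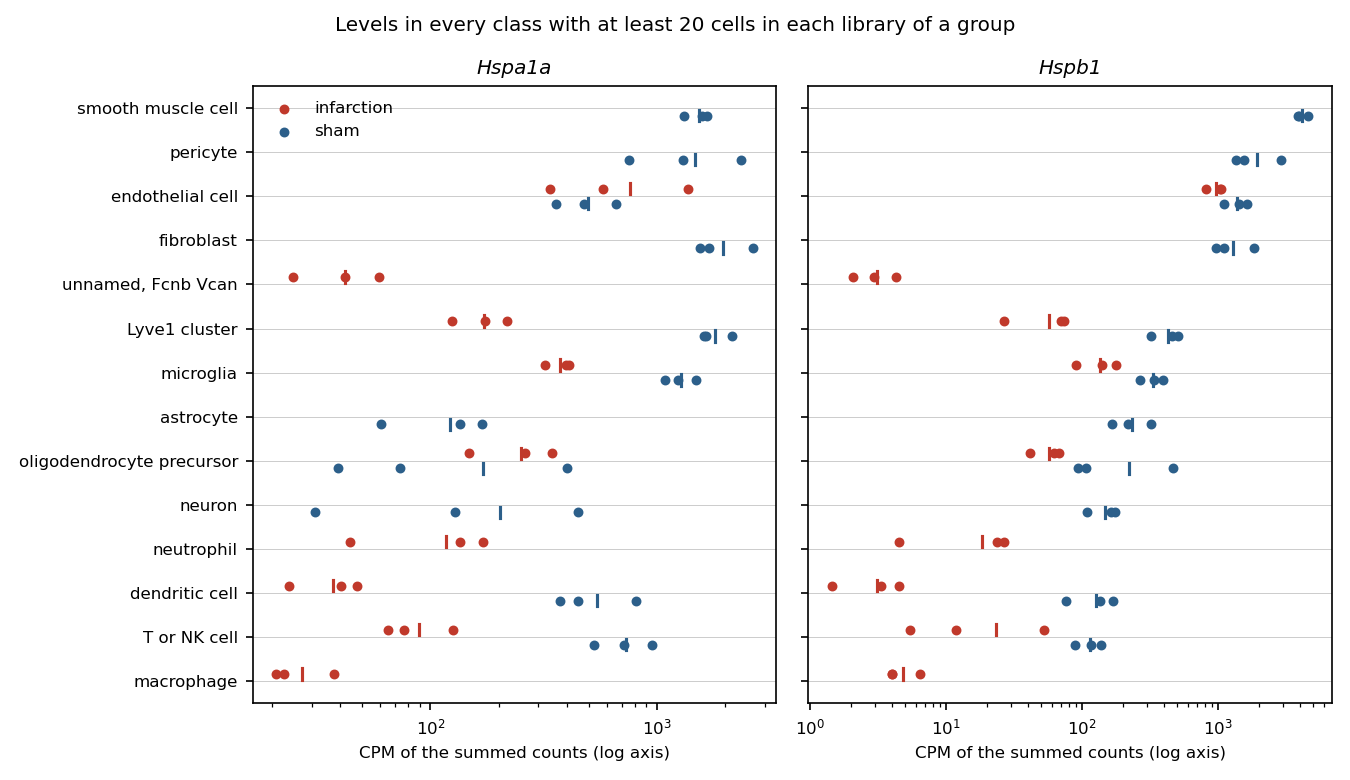
Plain CPM of Hspa1a and Hspb1 on a log axis, for classes that reached 20 cells per library in that group, with 1 point per library and a bar for the group mean, infarction above sham. Smooth muscle cells have the highest Hspb1, at 4162 on average in sham, and macrophages after infarction have 4.81.

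Fibroblasts, neutrophils and ependymal cells could be tested at a lower minimum of 10 cells per library. In fibroblasts Hspd1, Hspe1 and Hspa8 were called higher and Hspa1a and Hspb1 lower, beside 23.0% of all genes, 10.3% higher and 12.7% lower, and 6 of 9 did not overlap, beside 40.8%. Hspb1 was 233, 125 and 123 CPM after infarction and 1076, 1821 and 970.3 CPM in sham fibroblasts, a log2 fold change of -3.03 ± 0.35 (adjusted p = 0.00074 by edgeR), and the groups were far apart. Sham fibroblasts also held 7907, 9425 and 4653 plain CPM of the 4 smooth muscle genes, against 189, 82.9 and 12.4 after infarction. The part of smooth muscle RNA in the fibroblast falls of Hspb1 and Hspa1a was not tested. In neutrophils Hspa8 and Hspd1 were called higher and Hspa1a lower, beside 21.1% of all genes, 14.1% higher and 6.96% lower, and 5 of 7 did not overlap, beside 43.3%, with sham sums of 12 to 44 cells. Those sham sums held only 0, 1 and 0 UMIs of Hspd1 and 14, 83 and 18 of Hspa8. The median log2 fold change of all genes tested in neutrophils was 0.38. Estimated from macrophage genes, free RNA came to 58.3% to 111% of the infarction neutrophil sums, and a share above 100% cannot be an amount of free RNA. The estimate would give 819 to 2159 plain CPM of Hspa8, where 790.4 to 1081 were measured, and 153 to 321 of Hspd1, where 39.4 to 68.0 were measured. The part of other cells' RNA in these 3 calls was not tested. No member was called in ependymal cells, the ciliated lining of the ventricles, where 1.24% of genes were called, 0.480% higher and 0.757% lower. There 1 of 9 members did not overlap between groups, beside 19.8% of all genes.

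The microglia of the 2 groups came from different clusters, so the members were also followed cluster by cluster. Most sham microglia were in the cluster led by Tmem119, a marker of resting microglia, with 2328 cells against 242 from infarction. Most infarction microglia were in clusters led by Anxa3, with 1296 cells, by Ccl4, with 1237 cells, and by Mki67, with 796 dividing cells, against 813, 142 and 22 from sham. In the Tmem119 cluster Hspa1a was 698 and 1011 plain CPM in the 2 infarction libraries with at least 20 cells, against 1153, 1581 and 1328 in sham. In the Mki67 cluster it was 287, 262 and 296 plain CPM after infarction. In the Ccl4 cluster it was 367, 659 and 531 after infarction, against 673 and 1162 in the 2 sham libraries with at least 20 cells. In the Anxa3 cluster it was 131, 144 and 92.8 after infarction and 316, 251 and 264 in sham. The Anxa3 cluster was shallow, with median UMIs per cell of 1883 to 2794 after infarction and 889 to 1002.5 in sham. Hspd1 stood at 263 and 208 plain CPM in the Tmem119 cluster after infarction and at 98.5, 118 and 122 in sham, and at 469.5, 450.2 and 494 in the Mki67 cluster after infarction. The Tmem119 cluster was also fitted alone, an alternative chosen after seeing the data, with 16 cells from the first infarction library. Hspa1a, Dnajb1, Hspa8, Hspe1 and Hspd1 were called in that fit. Their log2 fold changes were -0.84, -0.98, 0.57, 0.90 and 1.01 (adjusted p = 0.00236, 0.0229, 0.00117, 0.00399 and 7.75e-05 by edgeR). The share of all genes called in that fit is not given here, so the number of calls tells little about the chaperones. Hspb1 and Bag3 were at -0.33 and -0.16 there and were not called, and neither were Hsp90aa1 and Hsph1.

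**Figure D4:**
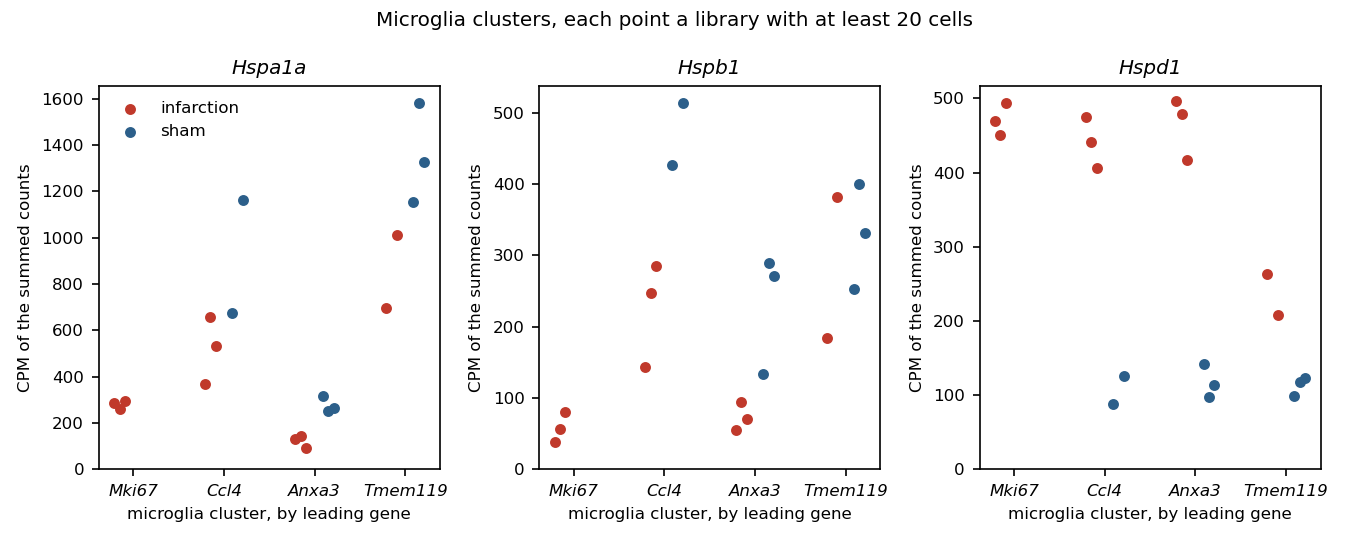
Plain CPM of Hspa1a, Hspb1 and Hspd1 in the 4 microglia clusters, named by their leading gene, with 1 point for each library with at least 20 cells, infarction left of sham. Hspd1 lies at 208 or above in every infarction point and at 141 or below in every sham point, while Hspa1a in the Tmem119 cluster reaches 1011 after infarction and 1581 in sham.

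Summed counts do not tell how many cells hold a transcript, so each cell was thinned to 1000 UMIs and the share of cells with at least 1 UMI was taken. Of 3 libraries against 3 the exact permutation test cannot go below a two-sided p of 0.1, and every share given here without overlap has that p (0.222 adjusted over the 60 pairs of member and class). In microglia 9 of 10 members did not overlap between groups, beside 46.2% of all genes, 6 higher and 3 lower. Hspd1 was found in 34.1%, 32.1% and 29.7% of infarction microglia and in 10.4% to 11.1% of sham microglia, and Hspa8 in 81.7% to 89.4% and 51.8% to 58.2%. Hspa1a was found in 19.1%, 19.0% and 23.3% of infarction microglia and in 41.2%, 51.1% and 41.0% of sham microglia. Its share in dendritic cells was 1.54%, 4.41% and 2.42% after infarction and 25.9%, 26.2% and 28.6% in sham. Dendritic cells had 5 members without overlap, beside 29.8% of all genes, T or NK cells 5 beside 16.8%, and the Lyve1 cluster 4 beside 22.5%. Endothelial cells and oligodendrocyte precursors had 2 each, beside 16.0% and 22.5%. These were Hspb1, lower in both, Hspd1, higher in endothelial cells, and Hspe1, higher in precursors. Called rises whose shares overlapped were Hspa8, Hspd1, Hsp90aa1 and Hsph1 in precursors, Hspa8 and Hsp90aa1 in endothelial cells and Hspe1 in dendritic cells. In the Lyve1 cluster they were Hspd1, Hsp90aa1 and Hspe1. Hsph1 was found in 9.52% to 11.1% of infarction precursors and in 10.7% to 17.7% of sham precursors. In endothelial cells Hspa1a was found in 19.4% to 30.3% of infarction cells and in 20.4% to 30.5% of sham cells, which overlap.

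Other parts of the folding machinery were counted with the same fits, and their counts are to be read against the share of all genes called higher, which was 32.3% in microglia, 13.8% in the Lyve1 cluster, 14.3% in oligodendrocyte precursors, 7.19% in dendritic cells, 4.46% in endothelial cells and 4.83% in T or NK cells. The TRiC chaperonin, the cytosolic ring that folds actin and tubulin, had 8 of 8 subunits higher in microglia, 7 of 8 in the Lyve1 cluster and 7 of 8 in oligodendrocyte precursors, 1 of 8 in endothelial cells and none in dendritic or T or NK cells. Its median log2 fold change was 0.88 in oligodendrocyte precursors and -0.15 in T or NK cells, beside -0.12 and -0.01 for all genes tested. Cct8 averaged 278 ± 19.5 CPM after infarction and 125 ± 5.74 CPM in sham microglia (SD, n = 3 each). HSP90 proteins and their co-chaperones had 11 of 13 higher and none lower in microglia and 7 of 13 higher in oligodendrocyte precursors, 5 of 13 in the Lyve1 cluster, 1 of 13 in dendritic cells and 1 of 12 in endothelial cells. In T or NK cells 0 of 13 were higher and 3 lower, where 2.69% of all genes were lower. Ptges3, the HSP90 co-chaperone p23, averaged 645 ± 44.4 CPM after infarction and 271 ± 8.99 CPM in sham microglia, a log2 fold change of 1.25 ± 0.07. The HSP90 partners Fkbp4 and Stip1 fell in T or NK cells with log2 fold changes of -0.85 ± 0.21 and -0.84 ± 0.23 (adjusted p = 0.0169 and 0.0318 by edgeR).

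Mitochondrial chaperones and proteases had 10 of 12 higher and none lower in microglia, with a median of 0.87 beside -0.02 for all genes tested, where 32.3% of all genes were called higher. They had 4 of 12 higher in the Lyve1 cluster, 2 of 12 in dendritic cells, 1 of 10 in endothelial cells and 2 of 11 in oligodendrocyte precursors, beside 13.8%, 7.19%, 4.46% and 14.3% of all genes. None of 8 was called in T or NK cells. Clpp, a protease of the matrix, averaged 22.8 ± 2.87 CPM after infarction and 7.96 ± 2.39 CPM in sham microglia (SD, n = 3 each). Among BAG and other HSP70 partners, 7 of 9 rose in microglia and none fell, with Bag1, a nucleotide exchange factor, at 258 ± 7.40 CPM after infarction and 103 ± 8.63 CPM in sham. J-domain genes split, with 6 of 15 higher and 5 lower in microglia. Dnajc2, which works at the ribosome, had a log2 fold change of 1.56 ± 0.10 there, and Dnajb14, a J-domain protein of the endoplasmic reticulum, one of -1.30 ± 0.14. Of the HSP70 and HSP110 list 4 of 7 were higher and 2 lower in microglia, and Hspa4, an HSP110 relative, had log2 fold changes of 1.02 ± 0.08 in microglia and 0.68 ± 0.20 in T or NK cells. Of the small heat shock genes tested, 4 of 5 fell in microglia and 2 of 2 in the Lyve1 cluster and in dendritic cells, beside 31.6%, 12.3% and 5.47% of all genes called lower. None of 2 in endothelial cells, 2 in oligodendrocyte precursors or 1 in T or NK cells was called. Cryab, the small heat shock protein αB-crystallin, averaged 3.17 ± 0.78 CPM after infarction and 18.9 ± 1.18 CPM in the sham Lyve1 cluster. Hspb1 is itself among these, and the free RNA values given above are those of Hspb1.

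The transcript of HSF1, the main heat shock factor, was not called in any class. Hsf1 averaged 13.9 CPM after infarction and 16.8 CPM in sham microglia, a log2 fold change of -0.26 ± 0.12 (adjusted p = 0.0809 by edgeR). Hsf2, a related factor, rose in microglia and T or NK cells, with log2 fold changes of 1.18 ± 0.23 and 2.15 ± 0.49 (adjusted p = 0.00167 and 0.00925 by edgeR). Its mean level in T or NK cells was 30.7 CPM after infarction and 6.26 CPM in sham.

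The genes most like 2 of the members were found over the 36 class and library sums, among 5557 genes with a mean of at least 20 plain CPM and on log2(CPM + 1). Hspd1 was most like Cct8, Ptges3 and Cct3, with Pearson r of 0.96, 0.95 and 0.94. Hspb1 was most like Serpinh1, the collagen chaperone HSP47, Lamb2 and Sparc, with r of 0.85, 0.85 and 0.85. Hspa1b had too few UMIs for this measure. These values describe points that share libraries and classes and carry no test.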

How the data were processed

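The authors deposited 1 matrix of raw UMI counts per library. Reads were handled with CASAVA 1.8 and Cell Ranger 3.1.0, and Seurat 2.3.4 is also named, per the submitters' processing notes. The genome build is not given in the sources used here. Cells with at least 500 UMIs, 200 genes and at most 20% mitochondrial UMIs were kept, and those with a Scrublet score above 0.25 were removed as doublets, since the automatic threshold marked 0% of cells in 2 infarction libraries. Cells were clustered with scanpy 1.11.5 (Leiden, resolution 1.0, 2000 variable genes, 30 components, no correction between libraries). A cluster was named for the class with most markers, at least 3.

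Counts were summed per library and class and fitted with edgeR 4.0.16 (TMM, filterByExpr, glmQLFit, glmQLFTest, robust), infarction against sham, with Benjamini-Hochberg adjustment over all genes of a class. The joint fit had library as a block. On simulated data at these sums a 4-fold change was recovered for 99.0% of changed genes in microglia and 74.7% in oligodendrocyte precursors. Changed genes were drawn only from those above a minimum mean level, which Bag3 did not reach in any tested class and Hspe1 did not reach in endothelial cells. The sums held 170796 to 14110089 UMIs. Intervals and depth cover counting error only, and a p-value reflects how far these 6 libraries vary, which the labels do not tie to separate animals beyond naming 3 operated rats. Free RNA was estimated from the lowest relative level of smooth muscle, choroid plexus, neutrophil or macrophage genes in a class.

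The members, gene lists, markers and tests were chosen with earlier results of these data known. Named genes are the members, up to 2 genes per list with the smallest p among those called in a class, Hsf1 and Hsf2, and the genes most like Hspa1b, Hspd1 and Hspb1. Settings tried were size factors from DESeq2 1.42.0, no filter, DESeq2 itself, leaving out each library, a replicate block, other mitochondrial, doublet and clustering settings, other thinning depths, and, chosen after seeing the data, the Tmem119 cluster alone, microglia without the Anxa3 cluster and sums less free RNA.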

Additional observations from a re-analysis of the deposited data

Results flagged for a closer look

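The response to infarction differed between cell classes for 14 pairs of member and class, each tested as the difference between the class's log2 fold change and that in microglia, in the joint fit. All members but Hspa1b were tested against microglia in each other class. Of all 9477 genes in that fit, 13.7% were called for T or NK cells, 17.3% for endothelial cells and 15.1% for oligodendrocyte precursors. The shares were 13.6% for dendritic cells and 5.04% for the Lyve1 cluster. In T or NK cells the fold was lower than in microglia for Hsph1 (-2.09), Hspd1 (-1.90), Hsp90aa1 (-1.66), Hspe1 (-1.62) and Hspa8 (-1.02). These 5 were called in all 8 alternatives of that fit. In endothelial cells the fold was higher for Hspa1a (2.63) and Dnajb1 (1.96) and lower for Hspd1 (-1.12) and Hsph1 (-0.87), the last called in 3 of 8 alternatives. In oligodendrocyte precursors it was higher for Hspa1a (3.03), called in all 8 alternatives, and Dnajb1 (1.36), called in 6. In dendritic cells it was lower for Hspb1 (-3.88), called in all 8, and Hspd1 (-0.87), called in 4. In the Lyve1 cluster it was lower for Hsph1 (-1.04), called in 5 of 8 alternatives. For Hspa1a 1 infarction library of endothelial cells stood at 1506 CPM, and without it the difference was 1.82 (adjusted p = 0.0854 by edgeR). In oligodendrocyte precursors 1 sham library stood at 387 CPM of Hspa1a, and the difference was called without it too.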

How the results depend on the processing

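Of 42 folds of members called in a class or over all cells, 584 of 617 alternative values kept direction and call, 31 lost the call and 2 changed sign. Both sign changes were Bag3 in microglia, at -0.54 with a clustering resolution of 0.5 (adjusted p = 0.0138 by edgeR) and -0.16 in the Tmem119 cluster alone; the cause was not tested. Among folds that were not called, the sign turned for Hsph1 in Lyve1 cluster cells, at 0.028 with no filter, 0.00040 in DESeq2, 0.012 at resolution 0.5 and 0.0096 with chaperone and early genes left out of the clustering, and it ran from -0.16 to 0.23 when 1 library was left out. Leaving out 1 library also gave -0.24 to 0.094 for Hspe1 in T or NK cells, -0.19 to 0.076 for Hspd1 in T or NK cells, -0.23 to 0.64 for Hsph1 in endothelial cells and -0.19 to 0.71 for Dnajb1 in oligodendrocyte precursors. At no more than 10% mitochondrial UMIs the value for Hspd1 in T or NK cells was 0.025.

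The members called when 1 library was left out numbered 9 in microglia each time, 6 to 7 in the Lyve1 cluster, 4 to 6 in dendritic cells, 3 to 5 in T or NK cells, 1 to 4 in endothelial cells (lowest without infarction library 2), 2 to 6 in oligodendrocyte precursors (lowest without sham library 1) and 8 over all cells. With no filter 6 were called in endothelial cells, and in the Tmem119 cluster alone 5 were called, where infarction library 1 has 16 cells. In the main fits 64.0% of all genes tested were called in microglia, 26.0% in the Lyve1 cluster and 12.7% in dendritic cells. The shares were 7.52% in T or NK cells, 9.52% in endothelial cells, 28.2% in oligodendrocyte precursors and 71.3% over all cells. Shares for the alternatives are not given here, so these counts of members tell little by themselves. The genes called in endothelial cells numbered 564, against 1110 with no filter and 1138 with automatic doublet calls. The genes called in T or NK cells numbered 352, against 587 with no filter and 223 in DESeq2. The genes called in dendritic cells numbered 1067, against 1780 with no filter. The genes called in Lyve1 cluster cells numbered 1542, against 896 in DESeq2, the genes called in oligodendrocyte precursors 1921, against 2919 with automatic doublet calls, and the genes called in microglia 6684, against 1526 in the Tmem119 cluster. Leaving out 1 library moved these counts by over 1.5 times in endothelial cells (306 and 303 without infarction library 1 or 2), T or NK cells (218 without infarction library 2), dendritic cells (563, 655 and 609 without infarction library 1, infarction library 2 or sham library 2) and oligodendrocyte precursors (1177, 1265 and 1109 without infarction library 1, infarction library 2 or sham library 1).

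The replicate numbers were not taken as pairs, since same-numbered libraries had correlations of -0.0989, -0.0025 and 0.0399, while infarction library 2 correlated best with sham library 1. With the replicate number as a block 9 members were called in microglia, 7 in the Lyve1 cluster, 5 in dendritic cells, 4 in T or NK cells, 3 in endothelial cells and 5 in oligodendrocyte precursors, and Hspe1 in dendritic cells lost its call. The share of all genes called with that block is not given here. Shares without overlap numbered 27, against 28 with no thinning and 30 at 2000 UMIs. Dendritic cells, endothelial cells and oligodendrocyte precursors at the stricter mitochondrial limit, precursors at resolution 0.5 and dendritic cells with automatic doublet calls were not run. The smallest sums, of sham dendritic cells, held 170796 to 395928 UMIs. On simulated data a 2-fold change was recovered for 11.9% of changed genes in oligodendrocyte precursors, whose sums held 450651 to 751092 UMIs. In the other 5 classes it was recovered for 61.3% to 97.0%. The changed genes again lay above a minimum mean level, and the cause of the difference was not tested.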

Other observations

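Sham pericytes fell into 2 clusters that differed in the small heat shock gene. The cluster led by Rgs5, a regulator of G-protein signalling, had 2278, 4156 and 2227 plain CPM of Hspb1 and 1868, 3327 and 1304 of Hspa1a in the 3 sham libraries. The cluster led by Atp13a5, a marker of brain pericytes, had 379, 537 and 490.3 plain CPM of Hspb1 and 367, 456 and 200.5 of Hspa1a. The 2 clusters were apart in every library, and Hspd1 differed much less, at 183, 201 and 199 in the first and 158, 175 and 172 in the second. The clusters were formed from the same cells, so no test is given.

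Dnajb1 was found more often in microglia that also held Hspa1a, after thinning to 1000 UMIs. It was found in 21.4%, 17.3% and 24.3% of infarction microglia with Hspa1a, against 10.6%, 8.30% and 8.99% of those without it. In sham microglia it was found in 20.3%, 28.6% and 25.4% of cells with Hspa1a, against 9.95%, 13.97% and 13.3% of those without. The share was higher in cells with Hspa1a in all 6 libraries. Microglia pool clusters that differed in both genes, and the part of this was not tested. Other classes were mixed. The share was higher in every measured library of T or NK, Lyve1 cluster, smooth muscle, macrophage, neutrophil and endothelial cells. It was lower in some or all measured libraries of fibroblasts, pericytes, dendritic cells, choroid plexus epithelial cells and the cluster led by Fcnb and Vcan. No test is given. The gene most like Hspa1a over the 36 class and library sums, named here after its values were seen, was Jun, with a Pearson r of 0.85.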
